A study of Homo sapiens with 6 samples.

Results

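The collagen chains are the genes whose symbol is COL, a number, A and a number, each of which encodes 1 alpha chain of a collagen. COL17A1 was left out. By that rule 42 of the 20802 genes read in MCF10A cells were collagen chains, and no measured value was used to choose them. They were put into 3 classes by textbook role, with 11 fibrillar chains, 8 basement membrane chains and 23 chains of other collagens.

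Collagen molecules are built from 3 alpha chains wound into a triple helix, and many types need chains from more than 1 gene. Fibrillar collagens form the cable-like fibrils of connective tissue and are made mainly by mesenchymal cells. Type IV collagen forms the sheet of the basement membrane on which mammary epithelium rests, and smaller families bead, anchor or decorate fibrils and link them to that sheet.

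MCF10A cells are a benign line of human breast epithelium in wide laboratory use. Ion AmpliSeq Transcriptome sequencing, which reads 1 short amplicon per gene from cDNA, was run on 6 libraries, 2 labelled wt (the parental cells), 2 eGFP and 2 GIRK1. The eGFP cells stably carried the plasmid pIRES2eGFP, and the GIRK1 cells carried the same plasmid with KCNJ3, the gene of the G-protein-activated inward rectifier potassium channel subunit GIRK1, so that both transfected lines made eGFP, were selected with G418 and were sorted on green fluorescence. The comparison asked what a forced level of GIRK1 did to the transcriptome of a benign epithelial line. Transfection and sorting were shared by eGFP and GIRK1 but not by wt. The series' design speaks of lines and the methods of replicates, and neither says whether the 2 libraries of a group came from separate cultures or clones, so the p-values measure only the spread between these libraries, which may be technical.

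Libraries held 2506120 to 16040556 reads, so that 3 reads, the smallest count taken as detection, stood for 0.187 to 1.2 RPM (reads scaled to the library's total). KCNJ3 had 2408 and 3677 reads in GIRK1 and 0 in both eGFP libraries and wt replicate 2, at least 489-fold higher in GIRK1 than the level of 3 reads in eGFP. The library labelled wt replicate 1 had 48 reads of KCNJ3, and its 8 basal mammary markers summed to 338 RPM against 7754 to 15400 RPM in the other 5 libraries, with KRT14, KRT6A, KRT17, TP63 and DSG3 at 0. Its 10 luminal mammary markers summed to 16390 RPM, with ELF5 alone at 0, against 531 to 1024 RPM elsewhere, where ESR1, KRT19, TFF1, PGR and ELF5 were at 0. TP63 was at 0 in all 6 libraries. The library thus went against its label. It was left out of the tests, and its values are given beside the others. The GIRK1 libraries also carry a tag in the names of their deposited tables that the other 4 lack. Its meaning is not given, and it cannot be told apart from the genotype.

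Several collagens pair chains from neighbouring genes, and the starts of 3 such genes are shown because the results below compare their pairs. COL4A1 and COL4A2, the main chains of type IV collagen, lie head to head on chromosome 13 with RefSeq starts 127 bases apart, so that their 300-base windows share 226 bases. COL4A5 and COL4A6, further type IV chains, lie head to head on the X chromosome with starts 380 bases apart and windows that share 121 bases. COL6A2, a chain of type VI collagen, lies on chromosome 21 near COL6A1. The sequences below run across each start site over 300 bases, from RefSeq (GRCh38.p14), at chr13:110307034-110307333 (plus strand) for COL4A2, chrX:108439588-108439887 (plus strand) for COL4A5 and chr21:46097862-46098161 (plus strand) for COL6A2. Capitals mark the letters CCAAT, the letters GGGCGG (a GC box) and the letters TATAAA on either strand, with no overlap between them in these 3 windows.
COL4A2: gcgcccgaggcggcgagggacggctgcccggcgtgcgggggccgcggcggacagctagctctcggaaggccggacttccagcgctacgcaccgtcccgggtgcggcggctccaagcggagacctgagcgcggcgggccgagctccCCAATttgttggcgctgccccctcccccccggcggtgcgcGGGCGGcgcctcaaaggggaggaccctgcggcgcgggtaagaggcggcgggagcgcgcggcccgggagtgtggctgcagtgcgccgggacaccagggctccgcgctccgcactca
COL4A5: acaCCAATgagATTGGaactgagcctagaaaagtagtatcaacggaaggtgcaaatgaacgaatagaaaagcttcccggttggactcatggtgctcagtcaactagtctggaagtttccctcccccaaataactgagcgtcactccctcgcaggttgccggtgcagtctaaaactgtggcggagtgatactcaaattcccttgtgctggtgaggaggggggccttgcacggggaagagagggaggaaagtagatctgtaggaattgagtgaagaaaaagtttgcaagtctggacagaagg
COL6A2: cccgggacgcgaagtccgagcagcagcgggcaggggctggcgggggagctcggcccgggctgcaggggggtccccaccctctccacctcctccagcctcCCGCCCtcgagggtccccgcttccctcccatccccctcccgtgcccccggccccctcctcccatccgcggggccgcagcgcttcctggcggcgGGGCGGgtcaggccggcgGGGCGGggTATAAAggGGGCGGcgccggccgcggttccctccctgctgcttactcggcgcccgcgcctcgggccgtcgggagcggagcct

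The COL4A2 window held 1 CCAAT and 1 GC box and had a GC content of 77.7%. The COL4A5 window held 2 CCAAT and no GC box at a GC content of 49.3%. The COL6A2 window held 4 GC boxes and 1 TATAAA at 79.3% GC. Windows were found for 11 of the 16 chains that passed the filter on low counts described below, with 2 windows each for COL4A6 and COL18A1. Of those 13 windows 10 held GGGCGG, 4 CCAAT and 4 TATAAA, where 45%, 34.6% and 11.5% of all 35116 RefSeq windows of this length did. The windows are not independent. Those with CCAAT belong to COL4A1, COL4A2, COL4A5 and COL4A6, and each head-to-head pair shares CCAAT letters in its overlap. COL1A1, COL2A1, COL5A2, COL6A1 and COL8A1 were not matched.

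Of the 42 chains, 28 had at least 1 read in some library and 14 had none in any. The 14 were the fibrillar chains COL1A2 and COL11A1, the basement membrane chain COL15A1 and 11 others, among them COL6A3, the chain that joins COL6A1 and COL6A2 in the classical type VI molecule. At the depths of these libraries that places each below the level of 3 reads, not at absence, and an amplicon that works poorly gives the same 0. COL1A2 is the partner of COL1A1 in type I collagen, and COL1A1 was read in every library. There were 17 chains with 10 reads or more in some library. Each gene is read by its own amplicon, so levels of different chains are not comparable.

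Summed over all 42 chains, collagen reads came to 588 and 425 RPM in eGFP, 349 and 267 RPM in GIRK1, 401 RPM in wt replicate 2 and 207 RPM in wt replicate 1. Both GIRK1 libraries lay below both eGFP libraries and below wt replicate 2. The fibrillar class summed to 20.3 and 14.6 RPM in eGFP, 16.3 and 17.7 RPM in GIRK1 and 13.7 RPM in wt replicate 2, and its groups overlapped. The basement membrane class came to 264 and 186 RPM in eGFP, 198 and 159 RPM in GIRK1 and 187 RPM in wt replicate 2. Those groups overlapped as well. The other collagens summed to 304 and 224 RPM in eGFP, 134 and 90.0 RPM in GIRK1 and 200 RPM in wt replicate 2, with both GIRK1 libraries lowest of these 5. In bulk RNA, fewer cells that make a chain and less of its RNA per cell cannot be told apart. The plot of summed levels by class shows these values with wt replicate 1.

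**Figure D1:**
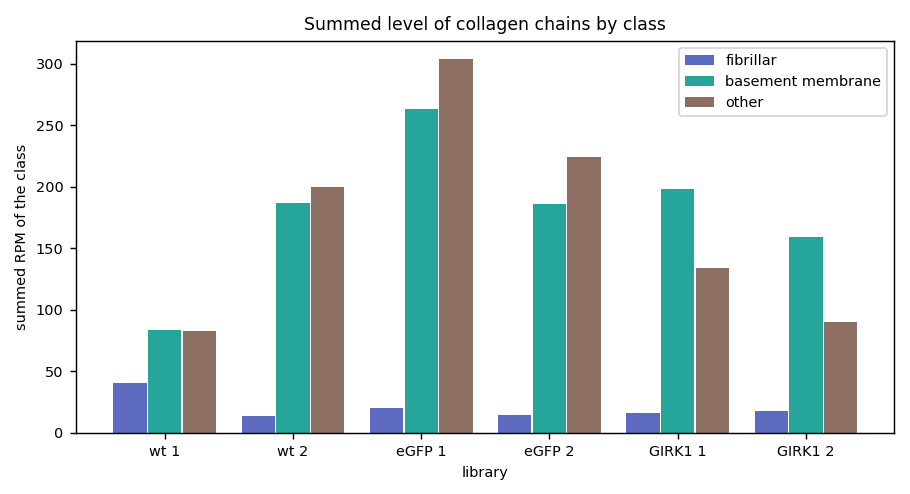
Summed level of the collagen chains of each class (y axis, RPM, linear from 0) in each of the 6 libraries (x axis), 1 bar per class. The bar of the other collagens is highest in the eGFP libraries (304 and 224 RPM) and lower in the GIRK1 libraries (134 and 90.0 RPM), while the fibrillar bar lies between 13.7 and 20.3 RPM in every library but wt replicate 1 (40.3 RPM).

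edgeR's filter kept 11779 genes and 16 of the 42 chains, 4 fibrillar, 5 basement membrane and 7 other. A chain can pass that filter through the group in which it is high, so the 16 are not all chains. Of the 26 not kept, 12 had some reads and only COL5A1 reached 10 in any library. In GIRK1 against eGFP, 1 of the 16 chains, COL6A2, passed as lower at an adjusted p below 0.05 in the quasi-likelihood test of edgeR, adjusted over all genes tested by Benjamini and Hochberg's method, where 0.840% of genes were lower. No chain was higher, where 0.756% of genes were. At an unadjusted p below 0.05, 7 of 16 chains were lower (COL4A1, COL4A2, COL6A1, COL6A2, COL8A1, COL12A1 and COL16A1) against 10.7% of genes, and 0 were higher against 8.13%. DESeq2 called 5 chains on the same libraries (COL4A1, COL4A2, COL6A1, COL6A2 and COL8A1), all lower, where it called 3.82% of all genes lower.

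The median log2 fold change over the 16 chains was -0.93 beside 0.02 over all genes, and 11 of 16 chains (68.8%) were below 0 beside 48.7% of genes. Without the filter on low counts the median was 0.082 over 25 chains, beside 0.035 over all genes then tested. COL6A2, with 1 read in each GIRK1 library and in wt replicate 2, passed the filter through eGFP. COL13A1 passed through eGFP replicate 1, at 2.34 RPM there against 0.586 RPM in eGFP replicate 2 and 0.45 and 0.097 RPM in GIRK1. A chain kept in this way is more apt to lie lower in GIRK1. Both count in the medians, the 11 of 16, the 9 chains and the 8 chains of this paragraph. A fit of the 4 eGFP and GIRK1 libraries, which did not keep COL13A1, gave a median of -0.671 over 15 chains, beside 0.013 over all genes. By class, medians were taken with the filter and the 5 libraries tested. They were 0.04 for the 4 fibrillar chains, -0.29 for the 5 basement membrane chains and -1.84 for the 7 other chains. For GIRK1 against wt replicate 2 these medians were 0.48, 0.06 and -0.34. Over the 16 chains the median there was -0.08 beside 0.01 over all genes, with 9 of 16 below 0. The medians there for the other class and for the 16 chains hold a fitted value of 0.52 for COL6A2. With 1 read in each library compared, that value is no fold, and both medians would lie lower without it. For eGFP against wt replicate 2 it was 0.646 over the 16 chains, beside 0.013 over all genes. In RPM, 9 chains lay lower in both GIRK1 than in both eGFP libraries (COL4A1, COL4A2, COL4A6, COL6A1, COL6A2, COL8A1, COL12A1, COL13A1 and COL16A1) against 24.8% of genes. None lay higher in both, against 29.2%. With wt replicate 2 added to the controls, 6 chains lay below all 3 (COL4A1, COL4A2, COL6A1, COL8A1, COL12A1 and COL16A1) against 19.3% of genes, and none above, against 21.6%. Both eGFP libraries were above wt replicate 2 and above both GIRK1 libraries for 8 chains (COL4A1, COL4A2, COL4A6, COL6A1, COL6A2, COL8A1, COL13A1 and COL16A1) against 15.1% of genes. The plot of levels by library sets the chains side by side.

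Fits that leave out 1 library are given below where they change a call. They leave that line with 1 library, which is assumed to vary like the rest, and the spread then comes from the 1 remaining pair of replicates. The share of all genes called moves with them. Without eGFP replicate 1, 4 chains and 4.65% of genes were lower than in eGFP, without eGFP replicate 2, 6 chains and 13.8%, without GIRK1 replicate 1, 3 chains and 1.06%, and without GIRK1 replicate 2, 2 chains and 0.617%. For GIRK1 against wt replicate 2, 3 chains and 4.93% of genes were called in either direction without eGFP replicate 1, 2 chains and 3.82% without eGFP replicate 2, and 1 chain and 0.549% without GIRK1 replicate 1. A pass in such a fit is a property of those libraries and is not a replicated difference.

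**Figure D2:**
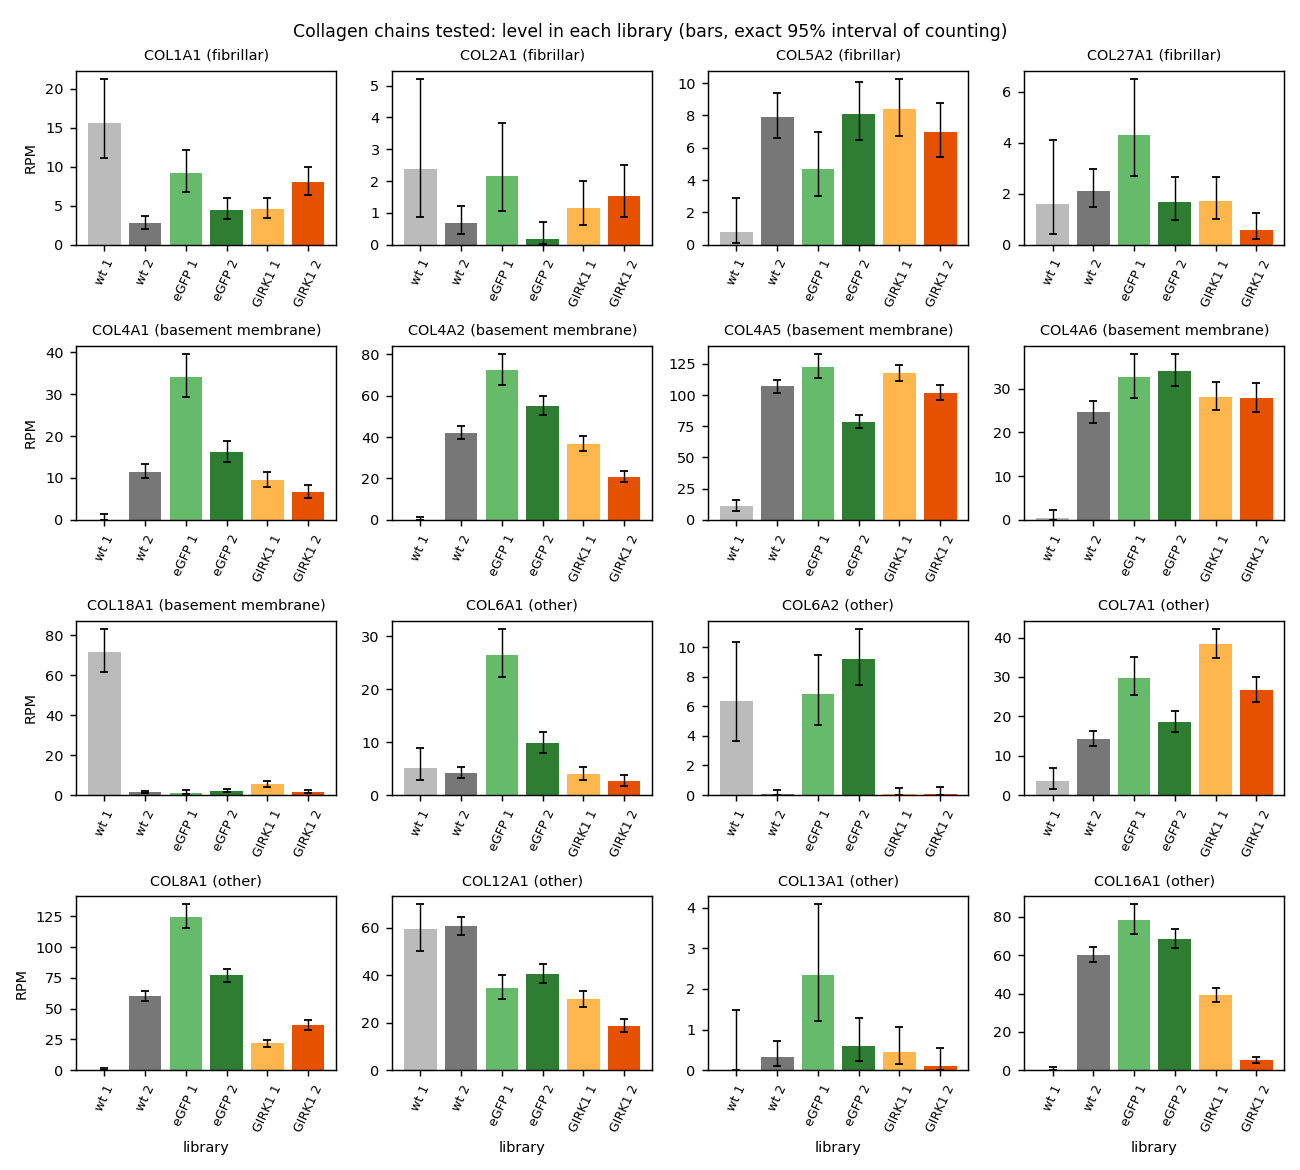
Level of each of the 16 chains tested (y axis, RPM, linear from 0, with its own scale per panel) in each of the 6 libraries (x axis). Bars are the values and error bars the exact 95% interval of counting in 1 library; COL6A2 stands at 6.83 and 9.19 RPM in eGFP and under 0.1 RPM in GIRK1 and wt replicate 2, and COL4A1, COL4A2, COL8A1 and COL16A1 are lowest in GIRK1 among the 5 libraries tested and have no read in wt replicate 1.

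Type VI collagen forms beaded filaments close to the cell surface and is built from the products of COL6A1, COL6A2 and a further chain. COL6A2 (GRCh38, chromosome 21, 46098097 to 46132849, plus strand; promoter printed above) was read by an amplicon at bases 2404 to 2508 of NM_001849. It had 35 and 94 reads in the eGFP libraries (6.83 and 9.19 RPM), 1 and 1 in GIRK1 (0.09 and 0.097 RPM), 1 in wt replicate 2 and 16 in wt replicate 1 (6.38 RPM). The GIRK1 libraries and wt replicate 2 were thus all under the level of 3 reads, and the eGFP libraries stood apart from all 3. The log2 fold change of GIRK1 against eGFP was -6.30 (SE 0.64, edgeR adjusted p = 0.00764). Since only 2 reads stand for GIRK1, the ratio of summed reads per depth, eGFP over GIRK1, was 90.1 with an exact 95% counting interval of 24.4 to 752, which covers counting error only.

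The same ratio of eGFP over wt replicate 2 was 135 (23.8 to 5360). No fold is given for GIRK1 against wt replicate 2, as all 3 libraries had 1 read. In eGFP against wt replicate 2 the log2 fold change of COL6A2 was 6.82 (SE 0.86), with an edgeR adjusted p of 0.564, and DESeq2 called it. COL6A2 lost its call in GIRK1 against eGFP when eGFP and wt replicate 2 were pooled as 1 control (log2 fold change -5.66, edgeR adjusted p = 0.2) and when wt replicate 1 was kept (-6.26, edgeR adjusted p = 0.934). Leaving out any single eGFP or GIRK1 library kept the call, at log2 fold changes from -6.45 to -6.13.

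COL6A1 (chromosome 21, 45981737 to 46005050, plus strand) encodes the partner chain. It had 26.5 and 9.87 RPM in eGFP, 3.96 and 2.61 RPM in GIRK1, 4.24 RPM in wt replicate 2 and 5.19 RPM in wt replicate 1. Both eGFP libraries were above the other 4, and GIRK1 and wt replicate 2 lay close together. The log2 fold change against eGFP was -2.51 (SE 0.56), which did not pass in edgeR's quasi-likelihood test (adjusted p = 0.0879). In fits with 1 library in an arm it passed without eGFP replicate 1 (-1.56, edgeR adjusted p = 0.0271), without eGFP replicate 2 (-3.11, edgeR adjusted p = 0.00011) and without GIRK1 replicate 1 (-2.83, edgeR adjusted p = 0.0447). Against wt replicate 2 the log2 difference of GIRK1 was -0.34 with a 95% interval from -1.91 to 1.22.

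Read as a share of the COL6A1 and COL6A2 reads together, COL6A2 took 20.5% (exact 95% interval 14.7 to 27.3) and 48.2% (41 to 55.5) in eGFP replicates 1 and 2. The share was 2.22% (0.0562 to 11.8) and 3.57% (0.0904 to 18.3) in GIRK1 and 1.45% (0.0367 to 7.81) in wt replicate 2. Within the eGFP line the intervals of the 2 libraries did not meet, and both lay above the intervals of wt replicate 2 and of GIRK1 replicate 1, while eGFP replicate 1 overlapped GIRK1 replicate 2. In wt replicate 1 the share was 55.2% (35.7 to 73.6). A share compares 2 amplicons within 1 library and is not the ratio of the 2 chains.

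**Figure D3:**
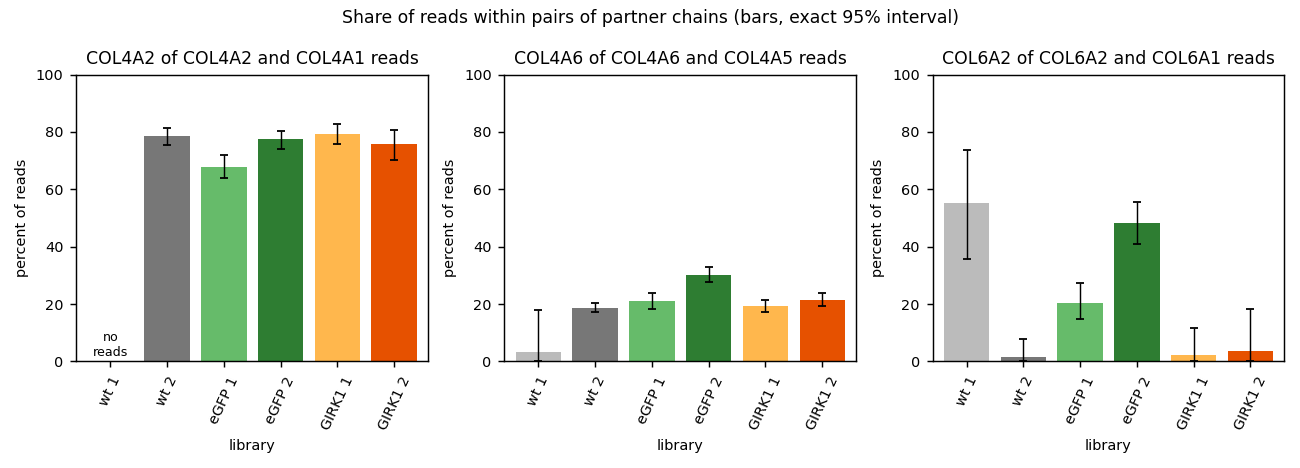
Share of the reads of 2 partner chains taken by the named chain (y axis, percent, linear from 0) in each library (x axis), with exact 95% intervals of counting. COL6A2 takes 20.5% and 48.2% in eGFP against 1.45% to 3.57% in GIRK1 and wt replicate 2, COL4A2 takes 67.9% to 79.4% in the 5 libraries with reads, and COL4A6 is highest in eGFP replicate 2 at 30.2%.

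Among the basement membrane chains, COL4A1 (chromosome 13, 110148963 to 110307233, minus strand) had 34.1 and 16.1 RPM in eGFP, 9.54 and 6.67 RPM in GIRK1 and 11.5 RPM in wt replicate 2. COL4A2 (110305812 to 110513209, plus strand) had 72.4 and 55.2 RPM in eGFP, 36.8 and 20.8 RPM in GIRK1 and 42.2 RPM in wt replicate 2. The 2 genes, whose windows overlap as printed above, ordered the libraries alike, with eGFP highest, wt replicate 2 next and GIRK1 lowest. COL6A1, COL8A1 and COL16A1 had the same order, so it was not particular to this pair. Neither had a read in wt replicate 1. Against eGFP the log2 difference of GIRK1 was -1.67 for COL4A1 (SE 0.44, edgeR adjusted p = 0.119) and -1.20 for COL4A2 (SE 0.33, edgeR adjusted p = 0.135), so neither passed. With eGFP replicate 1, the library highest in both, alone for eGFP, both passed (COL4A1 -2.17, edgeR adjusted p = 0.000294; COL4A2 -1.43, edgeR adjusted p = 0.00397), with the spread from the GIRK1 pair, and COL4A2 also passed without eGFP replicate 1 (-0.92, edgeR adjusted p = 0.043). Against wt replicate 2 the 95% intervals ran from -1.70 to 0.72 for COL4A1 and from -1.45 to 0.39 for COL4A2.

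COL4A2 took 67.9% (exact 95% interval 63.9 to 71.8) of the reads of the pair in eGFP replicate 1. In eGFP replicate 2 it took 77.4% (74.2 to 80.4), in GIRK1 79.4% (75.7 to 82.8) and 75.7% (70.3 to 80.6), and in wt replicate 2 78.5% (75.6 to 81.2). The share in eGFP replicate 1 was the lowest of these 5, and its interval met that of GIRK1 replicate 2 but not those of the other libraries.

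The other head-to-head pair showed no such order. COL4A5 (X chromosome, 108439844 to 108697545, plus strand) had 123 and 78.8 RPM in eGFP, 118 and 102 RPM in GIRK1, 107 RPM in wt replicate 2 and 11.2 RPM in wt replicate 1. COL4A6 (108155607 to 108439497, minus strand) had 32.6 and 34.1 RPM in eGFP, 28.2 and 27.8 RPM in GIRK1, 24.6 RPM in wt replicate 2 and 1 read in wt replicate 1. The GIRK1 values of COL4A5 lay between the eGFP values. Log2 differences from eGFP were 0.07 for COL4A5 (95% interval -0.60 to 0.75) and -0.29 for COL4A6 (-0.81 to 0.23), and neither passed in edgeR's test. The COL4A6 share of the pair was 30.2% (27.6 to 33) in eGFP replicate 2 against 18.7% to 21.5% in eGFP replicate 1, GIRK1 and wt replicate 2. The plot of partner shares shows that eGFP replicate 2 stood above its own replicate here.

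COL18A1 (chromosome 21, 45405137 to 45513720, plus strand), a basement membrane proteoglycan collagen whose end fragment is endostatin, had 1.17 and 2.05 RPM in eGFP, 5.31 and 1.45 RPM in GIRK1 and 1.37 RPM in wt replicate 2. The groups overlapped, and its log2 difference of 0.98 had an edgeR adjusted p of 0.484. In wt replicate 1 it had 71.8 RPM. COL4A3 and COL4A4, the further type IV chains, had at most 3 and 4 reads in any library and were not tested.

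Of the other collagens, COL8A1 (chromosome 3, 99638475 to 99799226, plus strand), a short-chain network collagen, had 125 and 77.0 RPM in eGFP, 21.8 and 36.5 RPM in GIRK1, 60.0 RPM in wt replicate 2 and no read in wt replicate 1. The GIRK1 libraries were below all 3 controls. The log2 fold change was -1.84 against eGFP (SE 0.37, edgeR adjusted p = 0.0718) and -1.02 against wt replicate 2 (SE 0.42, edgeR adjusted p = 0.675), and neither passed. Against eGFP, in fits with 1 library in an arm, it passed without eGFP replicate 1 (-1.38, edgeR adjusted p = 0.00293), without eGFP replicate 2 (-2.20, edgeR adjusted p = 0.000174) and without GIRK1 replicate 2 (-2.28, edgeR adjusted p = 0.0168). Against wt replicate 2 it passed without eGFP replicate 1 (-1.02, edgeR adjusted p = 0.0296), a library that enters that comparison only through the spread.

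COL16A1 (chromosome 1, 31652247 to 31704319, minus strand) belongs to the collagens that associate with fibrils. It had 78.6 and 68.6 RPM in eGFP, 60.3 RPM in wt replicate 2, 39.1 RPM in GIRK1 replicate 1 and 5.12 RPM in GIRK1 replicate 2, with no read in wt replicate 1. The GIRK1 replicates thus differed more from each other than GIRK1 replicate 1 did from wt replicate 2. The log2 difference was -1.79 against eGFP (SE 0.75, edgeR adjusted p = 0.263) and -1.43 against wt replicate 2 (edgeR adjusted p = 0.789). With GIRK1 replicate 2, the lower library, alone for GIRK1 and the spread from the eGFP pair, both passed, at -3.87 (edgeR adjusted p = 0.000194) and -3.51 (edgeR adjusted p = 0.00206), the latter with 1 library against 1. With all 5 libraries COL16A1 also passed against eGFP without the filter on low counts (-1.78, edgeR adjusted p = 0.0436), and DESeq2 did not call it. COL4A1, COL4A2, COL6A1 and COL8A1 passed in that fit as well (edgeR adjusted p = 0.00895, 0.0214, 0.00187 and 0.00101). In it 552 of 15206 genes were lower.

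COL12A1 (chromosome 6, 75084326 to 75206051, minus strand), another fibril-associated chain, had 34.7 and 40.4 RPM in eGFP, 29.8 and 18.6 RPM in GIRK1, 60.6 RPM in wt replicate 2 and 59.5 RPM in wt replicate 1. wt replicate 2 was above both transfected lines, and the GIRK1 libraries were lowest. The log2 difference of GIRK1 was -0.67 against eGFP (edgeR adjusted p = 0.255) and -1.30 against wt replicate 2 (SE 0.32, edgeR adjusted p = 0.355). The latter passed without eGFP replicate 1 (-1.30, edgeR adjusted p = 0.00445) and without eGFP replicate 2 (-1.31, edgeR adjusted p = 0.0152).

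COL7A1 (chromosome 3, 48564073 to 48595267, minus strand) forms the anchoring fibrils that tie the basement membrane to the stroma. It had 38.4 and 26.7 RPM in GIRK1, 29.8 and 18.6 RPM in eGFP, 14.2 RPM in wt replicate 2 and 3.59 RPM in wt replicate 1. GIRK1 and eGFP overlapped, and both were above wt replicate 2. The log2 difference of GIRK1 was 0.38 against eGFP (95% interval -0.41 to 1.18) and 1.21 against wt replicate 2 (SE 0.43, edgeR adjusted p = 0.582). The latter passed without eGFP replicate 1 (1.21, edgeR adjusted p = 0.016) and without eGFP replicate 2 (1.21, edgeR adjusted p = 0.0323). COL13A1, a transmembrane collagen, had 12 and 6 reads in eGFP, 5 and 1 in GIRK1, 5 in wt replicate 2 and 0 in wt replicate 1. Its log2 difference from eGFP was -2.29 (SE 1.11, edgeR adjusted p = 0.318), and it passed with eGFP replicate 1, the library with 12 reads, alone for eGFP (-3.12, edgeR adjusted p = 0.0439).

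The 4 fibrillar chains tested were COL1A1, the type I chain of bone and skin, COL2A1, the type II chain of cartilage, COL5A2, a type V chain of fibril cores, and COL27A1. COL1A1 had 9.17 and 4.49 RPM in eGFP, 4.59 and 8.02 RPM in GIRK1, 2.81 RPM in wt replicate 2 and 15.6 RPM in wt replicate 1. COL5A2 had 4.68 and 8.11 RPM in eGFP, 8.37 and 6.96 RPM in GIRK1, 7.92 RPM in wt replicate 2 and 0.798 RPM in wt replicate 1. COL2A1 and COL27A1 stayed between 0.195 and 4.29 RPM in all libraries. In each of the 4 the eGFP and GIRK1 libraries overlapped. No difference from eGFP passed in edgeR's test. Log2 values were -0.13, 0.36, 0.21 and -1.36 for COL1A1, COL2A1, COL5A2 and COL27A1, with edgeR adjusted p-values of at least 0.372. Under the study's own rule (2-fold and a coefficient of variation), COL27A1 was called lower (-1.38), where 682 of 13200 genes were. The sign for COL1A1 turned with pooled controls (0.23).

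**Figure D4:**
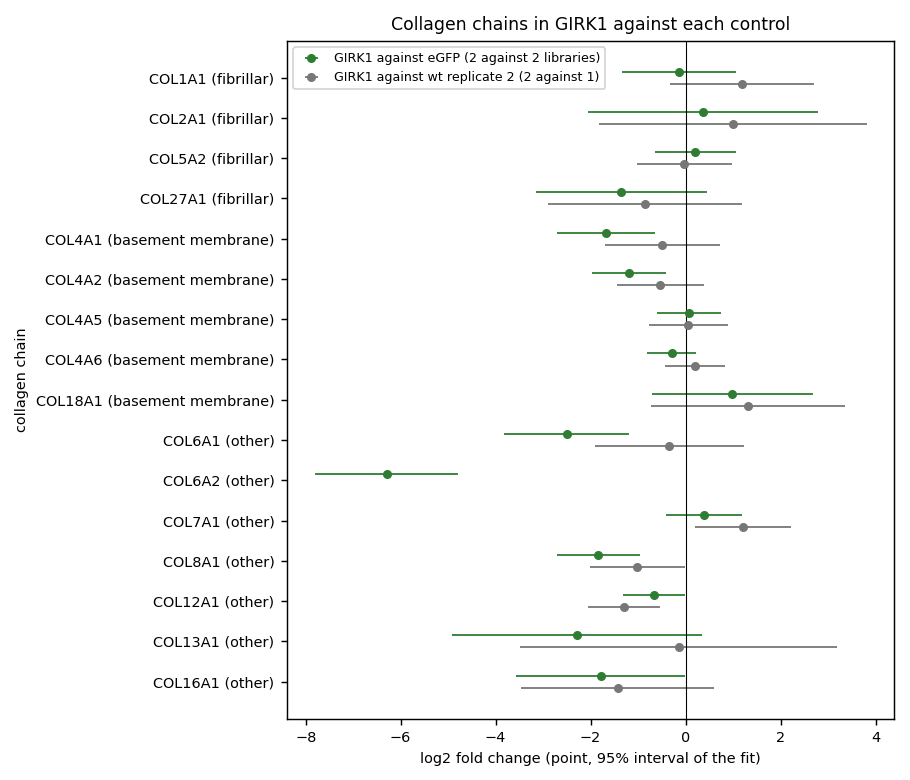
Log2 fold change (x axis) of GIRK1 against eGFP (green, 2 against 2 libraries) and against wt replicate 2 (grey, 2 against 1) for the 16 chains tested (y axis, class in brackets). Points are edgeR estimates and lines their 95% intervals; COL6A2 lies farthest from 0 at -6.30, and its grey point is left out because all 3 libraries had 1 read.

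GIRK1 against wt replicate 2 sets the GIRK1 line against the untransfected line, so transfection, selection and sorting cannot be told apart from the forced channel. In it 0 of 16 chains passed in edgeR's quasi-likelihood test, where 0.229% of all genes did. DESeq2 called 0 as well, against 1.07% of genes. At an unadjusted p below 0.05 there were 3 (COL7A1, COL8A1 and COL12A1) against 7.38% of genes. wt replicate 2 is alone in its group and was assumed to vary like the other lines. Between the controls, eGFP against wt replicate 2, 0 chains passed in edgeR's test, where 0% of genes did, and at an unadjusted p below 0.05 there were 2 (COL6A1 and COL6A2) against 3.55%. DESeq2 called COL6A2 there, where it called 0.0424% of genes. The log2 difference of eGFP from wt replicate 2 was 2.16 for COL6A1 (SE 0.70, edgeR adjusted p = 0.953) and 1.19 for COL4A1. Comparisons with eGFP share the eGFP libraries, and those with GIRK1 share the GIRK1 libraries. The plot of fold changes sets the comparisons with GIRK1 beside each other.

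Genes that act on collagens were read in the same fit of GIRK1 against eGFP. Over all genes, 0.840% were lower and 0.756% higher in edgeR's test after adjustment. At an unadjusted p below 0.05, 10.7% were lower and 8.13% higher. Of the enzymes and chaperones that fold, hydroxylate and trim collagen, 20 of 24 were tested and 0 passed in edgeR's test. At an unadjusted p below 0.05, 5 were lower and 0 higher, and the median log2 fold change was -0.36. Of the crosslinking enzymes 5 of 6 were tested and LOXL2, a lysyl oxidase, was lower. At an unadjusted p below 0.05, 2 of them were lower and 0 higher, and the list's median was -0.40. LOXL2 had 191 and 57.5 RPM in eGFP, 4.59 and 1.26 RPM in GIRK1 and 22.4 RPM in wt replicate 2, and 1 read in wt replicate 1, so that GIRK1 was below both eGFP libraries and wt replicate 2. Its log2 fold change was -5.46 (SE 0.80, edgeR adjusted p = 0.0294).

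Of the collagen receptors 8 of 9 were tested and ITGA10, the alpha chain of a collagen-binding integrin, was lower at a log2 fold change of -1.85 (SE 0.25, edgeR adjusted p = 0.0233). ITGA10 had 28.3 and 37.8 RPM in eGFP, 9.63 and 9.18 RPM in GIRK1 and 20.2 RPM in wt replicate 2. A further 3 receptors were lower at an unadjusted p below 0.05 only, where 10.7% of all genes were lower at that level. None was higher, and the list's median was -0.76. Of the genes that break collagen down, 4 of 8 were tested and 0 passed in edgeR's test, with 0 at an unadjusted p below 0.05 and a median of -0.60.

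Among other basement membrane genes 10 of 15 were tested, and LAMB3, which encodes a laminin chain of epithelial basement membranes, was lower. At an unadjusted p below 0.05, 4 genes of the list were lower (10.7% of all genes) and 3 higher (8.13%), and the list's median was 0.09. The 3, named after their values were seen, were AGRN, HSPG2 and LAMB2, with log2 differences of 0.97, 0.67 and 0.63, and none of them passed after adjustment. LAMB3 had 1747 and 1790 RPM in eGFP, 258 and 260 RPM in GIRK1 and 768 RPM in wt replicate 2, with a log2 fold change of -2.81 (SE 0.21, edgeR adjusted p = 0.00301). Again eGFP was highest, wt replicate 2 next and GIRK1 lowest. Against wt replicate 2, 0 genes of these lists passed in edgeR's test, where 0.229% of all genes did.

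Markers of cell types were read in the same libraries. The 8 fibroblast markers summed to 38.6 and 13.6 RPM in eGFP, 37.8 and 41.1 RPM in GIRK1, 23.2 RPM in wt replicate 2 and 2.0 RPM in wt replicate 1, with PDGFRA and THY1 at 0 in all 6 libraries. Of the 3 tested, DCN, which encodes the fibril-binding proteoglycan decorin, was higher in GIRK1 (27.0 and 25.2 RPM against 0.78 and 3.71 RPM in eGFP and 10.2 RPM in wt replicate 2, log2 fold change 3.37, edgeR adjusted p = 0.0328). The 5 endothelial markers summed to 0.774 to 3.71 RPM, with CDH5 and VWF at 0 throughout, and 0 of 2 tested passed in edgeR's test, with 1 lower at an unadjusted p below 0.05. Of the basal mammary markers 7 of 8 were tested, with LAMB3 lower and KRT17 higher (log2 fold change 2.17, edgeR adjusted p = 0.00764). Of the luminal markers 5 of 10 were tested and none passed, also at an unadjusted p below 0.05. The part of these markers in the chains' values was not tested.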

How the data were processed

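Total RNA of 6 MCF10A libraries was sequenced on an Ion S5 XL after Ion AmpliSeq Transcriptome amplification. The authors mapped reads to an amplicon reference with the Ion Torrent software and deposited, per amplicon, whole-number read counts and RPM values, which scale each count to the library's total. The genome build of that reference is not given in the sources used here, so amplicon positions are on transcripts. Gene positions came from GENCODE (GRCh38), matched by symbol. Of 20812 amplicons, 10 spike-in amplicons without reads were left out.

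Differences in counts were tested in R 4.3.3 by the quasi-likelihood method of edgeR 4.0.16 (limma 3.58.1), scaled by TMM. filterByExpr kept 11779 genes, over all of which p-values were adjusted by Benjamini and Hochberg's method, and 0.05 was the threshold. The fit held the 2 eGFP and 2 GIRK1 libraries and wt replicate 2, with 2 residual degrees of freedom. The fit did not include wt replicate 1, because earlier results of these data showed that library to stand apart. Standard errors were derived from the F value. Groups came from the labels. The procedure was also run on counts simulated from this fit's own levels and spread. That cannot show how well its p-values hold for these libraries.

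The chains, classes, gene lists, tests and alternatives were chosen with earlier results of these data known. Named chains were those kept by the filter or with at least 10 reads in some library. Named genes of the lists were those called in GIRK1 against eGFP, except for 1 result among the other basement membrane genes, which is not reported here. Alternatives were other scalings, no filter, DESeq2 1.42.0, all 6 libraries, the replicate block, fewer or pooled controls, a 2-fold threshold, the study's rule (2-fold and a coefficient of variation) and leaving out each replicate. Depth was 2506120 to 16040556 reads a library. Intervals of counts and shares are exact (Clopper-Pearson) and cover counting error only.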

Additional observations from a re-analysis of the deposited data

Results flagged for a closer look

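The library labelled wt replicate 1 entered no test. For 4 chains with at least 3 reads there, the exact 95% counting interval lay above those of the other 3 controls. The share of all genes that cleared this rule was not computed, so the count cannot be read as a trait of the collagens. Further chains were higher there without clearing that rule, such as COL1A1 at 15.6 RPM against at most 9.17 RPM. COL18A1 stood at 71.8 RPM (180 reads, exact 95% interval 61.7 to 83.1) and was 13.5 times the highest of the other libraries. COL5A1, a type V chain that starts fibrils, stood at 16.8 RPM (42 reads) and had no read in any other library, at least 28.6-fold higher than the level of 3 reads in each of them. COL14A1, a fibril-associated chain, stood at 2.79 RPM (7 reads), with 3 reads in GIRK1 replicate 1 and none elsewhere. COL9A2, a cartilage chain, stood at 2.39 RPM (6 reads), with 2 reads in eGFP replicate 2 and none elsewhere. The cause was not tested.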

How the results depend on the processing

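In GIRK1 against eGFP the 188 genes called became 865 without a filter, 677 with DESeq2, 549 with the replicate block, 0 with all 6 libraries and 1309 under the 2-fold and coefficient of variation rule, and 158 to 2997 on leaving out 1 replicate (973 without eGFP replicate 1, 2997 without eGFP replicate 2). The 1 chain called became 6 without a filter, 5 with DESeq2, 6 with the replicate block, 6 under the 2-fold rule, 0 with all 6 libraries and 0 with pooled controls, and 2 to 6 on leaving out 1 replicate. Against wt replicate 2 the 27 genes called became 133 without a filter, 126 with DESeq2, 77 with the replicate block and 0 with all 6 libraries, and 34 to 576 on leaving out 1 replicate (576 without eGFP replicate 1, 449 without eGFP replicate 2, 64 without GIRK1 replicate 1). The chains called there were 0 to 3 on leaving out 1 replicate. In eGFP against wt replicate 2 the 0 genes called became 6 without a filter, 5 with DESeq2 and 1 with the replicate block, and 5 to 1268 on leaving out 1 replicate (1268 without eGFP replicate 2), and the 0 chains became 1 without a filter, 1 with DESeq2 and 1 to 5 on leaving out 1 replicate (5 without eGFP replicate 2: COL4A1, COL6A1, COL6A2, COL7A1 and COL8A1). The numbers tested also moved, from 11779 genes and 16 chains in the main fit. They were 15206 and 25 without a filter, 13200 and 18 under the 2-fold rule and 11546 and 15 with all 6 libraries. With pooled controls they were 11389 and 15, and on leaving out 1 replicate 11649 to 11739 genes and 15 or 16 chains. Counts of calls are thus not all out of the same total. The causes were not tested, beyond the fewer libraries or other filter that each alternative sets.

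Signs turned for COL1A1 against eGFP with pooled controls (0.23). Against wt replicate 2 they turned with all 6 libraries for COL18A1 (-3.27), COL1A1 (-0.35), COL4A1 (0.37), COL4A2 (0.41) and COL5A2 (0.72), and with the replicate block for COL4A5 (-0.17) and COL5A2 (0.074). On leaving out 1 replicate the log2 difference from eGFP ran from -0.20 to 1.63 for COL18A1, -0.64 to 0.51 for COL1A1, -0.76 to 2.75 for COL2A1, -0.27 to 0.50 for COL4A5 and -0.062 to 0.61 for COL5A2, and from wt replicate 2 from -1.54 to 0.52 for COL13A1, -0.032 to 0.14 for COL4A5 and -0.15 to 0.084 for COL5A2. Of the other single-chain values, 296 kept sign and side of the threshold, 36 came to pass and 2, both COL6A2, ceased to. Those that came to pass against eGFP include COL16A1 without a filter (-1.78, edgeR adjusted p = 0.0436) and with the replicate block (-2.31, edgeR adjusted p = 0.0435). COL4A1, COL4A2, COL6A1 and COL8A1 also came to pass in both of these fits. Of all genes, 552 of 15206 were lower without a filter and 353 of 11779 with the replicate block.

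The replicate numbers are shared by the groups, but no label ties them to a batch or day. Across 9288 genes the differences between replicates 1 and 2 had a correlation of 0.19 between eGFP and GIRK1, from only 2 pairs, so the numbers were not taken to pair libraries. The fit has 2 residual degrees of freedom and a lone wt library, and chains of fewer than 3 reads are below the level that depth can show.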

Other observations

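The library labelled wt replicate 1 also lacked chains that the other controls held. COL16A1, COL4A1, COL4A2 and COL8A1 had no read in it, and the lowest of the other 3 controls was at least 50.4-fold, 9.63-fold, 35.3-fold and 50.2-fold higher than its level of 3 reads. Among low chains, COL3A1 and COL21A1 had 4 reads each there and none elsewhere.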
